A study of Mus musculus with 6 samples.

Results

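The miR-34 and miR-449 microRNAs form one seed family that is made from 3 loci of the mouse genome. They were followed here in small RNA libraries of iBN cells, a suspension line labelled as granulocyte-macrophage progenitors that grows in GM-CSF. Cells of both groups carry a system that makes PU.1, a transcription factor of the myeloid lineage encoded by Spi1, inducible. In 3 libraries the cells were left uninduced, and in the other 3 they had received 1000 ng/ml doxycycline for 72 hours, each group holding trials 1, 2 and 3. The assay does not show the level of PU.1, and doxycycline-treated cells without the inducible gene were not analysed here, so PU.1 and doxycycline cannot be told apart as the source of a difference. All mature names of the hairpins miR-34a, miR-34b, miR-34c, miR-449a, miR-449b and miR-449c were taken, which gave 11 of the 1915 mature names in the table, among them mmu-miR-34a-5p, mmu-miR-34c-5p, mmu-miR-449a-5p and mmu-miR-449c-5p, written below without the species prefix. Of these, 10 had at least 1 read, and 5 had enough reads to be tested.

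MicroRNAs guide Argonaute proteins to messenger RNAs mainly through the seed, bases 2 to 8 from the 5′ end, so members with the same seed are expected to reach overlapping sets of targets. The miR-34 genes are known as direct transcriptional targets of p53, and their products repress messenger RNAs of cell cycle and survival genes such as Cdk6, Met and Bcl2. In granulocyte development miR-34a is also known as a microRNA under C/EBPα that represses E2f3. The miR-34b/c and miR-449 genes are best known from multiciliated epithelium and from male germ cells.

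The mature sequences show what unites the family and what separates its loci. RefSeq, on the GRCm38.p6 build, held 9 of the 11 mature sequences, and miR-34c-5p and miR-449b were the ones without an entry. The 4 sequences of the 5′ arm are printed first because they carry the shared seed, in capitals, and the 3′ arm of miR-34a follows as the only 3′ arm with enough reads to be tested.
miR-34a-5p: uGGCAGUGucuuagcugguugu
miR-34b-5p: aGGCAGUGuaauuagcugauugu
miR-449a-5p: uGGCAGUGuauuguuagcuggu
miR-449c-5p: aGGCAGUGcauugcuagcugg
miR-34a-3p: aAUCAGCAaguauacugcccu

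No mature mouse sequence of the RefSeq table outside the family had the seed GGCAGUG. The first base differed both between and within loci, with U1A as the change from miR-34a-5p to miR-34b-5p and from miR-449a-5p to miR-449c-5p, counted from the 5′ end. Soon after the seed the sequences diverged. From base 2 on, pairs with miR-449c-5p matched through base 8 and the other pairs through base 9 or 10. The shortest edit distance between any pair of these 5′ arms was 4 bases, for miR-34a-5p with miR-34b-5p and for miR-449a-5p with miR-449c-5p. The 3′ arms had other seeds. miR-34b-3p and miR-34c-3p shared the seed AUCACUA with each other and with no other mature sequence of the table, and miR-34a-3p had AUCAGCA alone.

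In the GRCm38 assembly the miR-34a hairpin lies at chr4:150068454-150068555 on the plus strand, where GENCODE has an exon of the unclassified gene Gm37795 overlapping it. The miR-34b hairpin at chr9:51103562-51103645 and the miR-34c hairpin at chr9:51103034-51103110 are on the minus strand, 451 bases apart, within an intron of Btg4 on the opposite strand, and are known to be cut from one transcript. The miR-449c hairpin at chr13:113035983-113036091, the miR-449b hairpin at chr13:113037419-113037498 and the miR-449a hairpin at chr13:113037534-113037624 lie within 1642 bases of each other. All 3 are in an intron of Cdc20b, on the strand of that gene.

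The tested members of the Cdc20b intron were higher in every induced library than in any uninduced one, that of the chromosome 9 pair was lower, and the groups overlapped for the arms of miR-34a. In induced cells miR-449a-5p, from the Cdc20b intron, was 2.50-fold higher (1 SE range 2.11 to 2.96, n = 3 per group) and miR-34c-5p, from the chromosome 9 pair, was 2.37-fold lower. miR-34a-5p, the most abundant member, did not pass the test and had a log2 change of -0.16 (SE 0.14). In bulk libraries such as these, fewer cells that make a microRNA and less of it per cell cannot be told apart. Of the 5 tested members, 1 rose, 1 fell and 3 did not pass edgeR's quasi-likelihood test at a Benjamini-Hochberg adjusted p of 0.05, against 6.1% of all 525 tested microRNAs that passed in either direction, 3.43% higher and 2.67% lower. With the trial as a block, 2 rose, 1 fell and 2 did not pass, against 21.7% of all tested, 10.7% higher and 11% lower. The groups did not overlap for 3 of the 5 members, against 27.6% of all tested. Levels are given below in CPM, read counts scaled to library size with edgeR's TMM factors, and libraries in the order of trials 1, 2 and 3. The libraries held 10736735 to 16640610 reads over all entries, and 8697384 to 13946613 in the entries kept, 1 for each name. Finding 0 reads in a library therefore sets an upper limit of 0.220 to 0.336 CPM there, counting error only. Whether the trials were separate cultures is not stated in the labels. The p-values therefore rest on the spread among these libraries alone, and it may be technical.

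**Figure D1:**
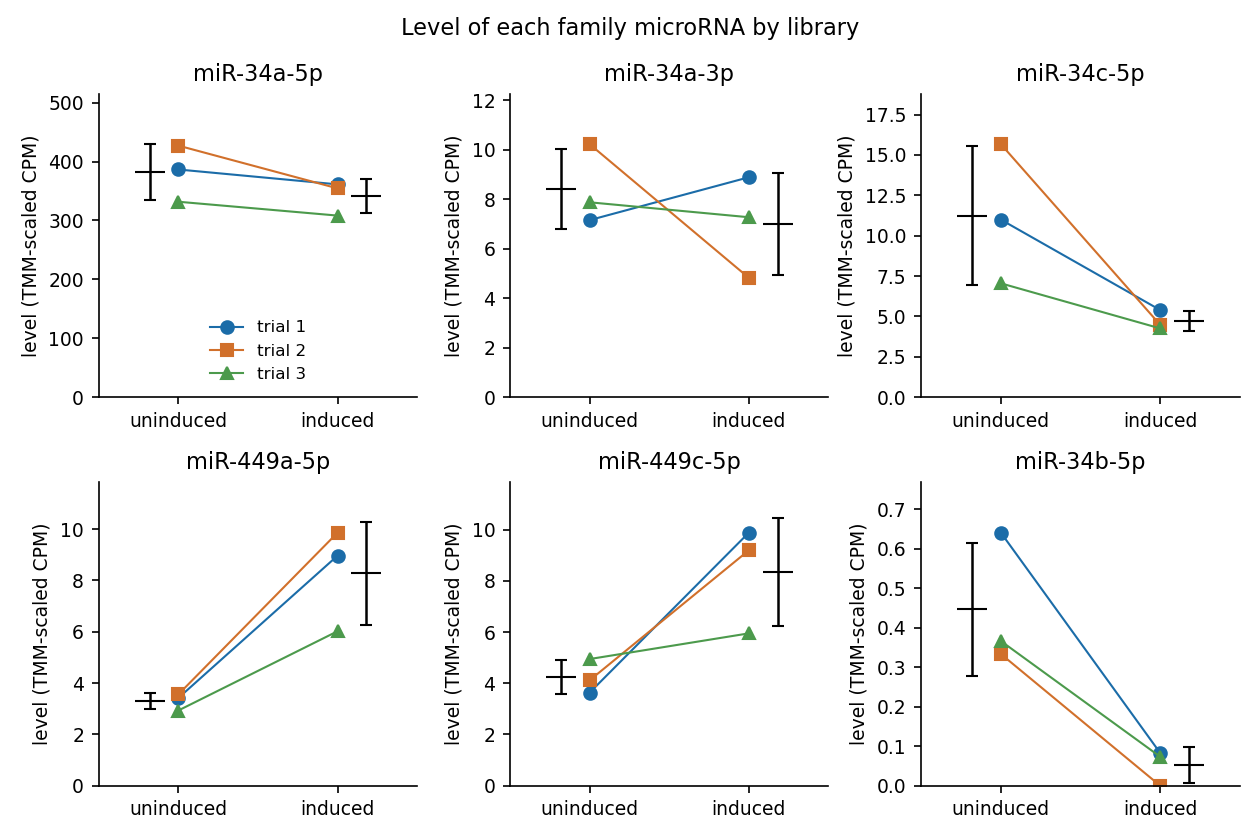
Level of 6 family microRNAs in TMM-scaled CPM in the uninduced and induced libraries, with lines joining libraries of the same trial and black bars for the mean and SD of 3 libraries. The induced libraries lie above the uninduced ones for miR-449a-5p and miR-449c-5p and below them for miR-34c-5p and miR-34b-5p, and the groups overlap for both arms of miR-34a. miR-34b-5p had at most 6 reads in a library, near the detection limit, and was not tested.

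miR-34a-5p, the guide strand of the p53-responsive miR-34a hairpin, had 386, 427 and 332 CPM without doxycycline and 361, 354 and 308 CPM with it. The groups overlapped, and trial 3 was lowest in both. Within each trial the induced library was the lower one, with log2 differences of -0.10, -0.27 and -0.11 in trials 1, 2 and 3. The means of 382 CPM ± 47.8 and 341 CPM ± 28.8 (SD, n = 3 each) gave a log2 change of -0.16 (SE 0.14, edgeR adjusted p = 0.570), and -0.16 (SE 0.09, edgeR adjusted p = 0.208) with the trial as a block. By mean level it ranked 104 among the 1915 names, and it held 22792 of the family's reads.

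The star strand miR-34a-3p, from the other arm of that hairpin, had 7.15, 10.2 and 7.87 CPM uninduced and 8.89, 4.82 and 7.27 CPM induced. The trials went different ways, with the induced library higher in trial 1 and lower in trials 2 and 3. Its log2 change was -0.25 (SE 0.25, edgeR adjusted p = 0.639). The 5′ arm made up 97.8% ± 0.30 of the hairpin's reads uninduced and 98.0% ± 0.59 after induction (SD, n = 3 each), so the choice of arm differed by less than the spread between libraries.

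miR-34c-5p had 11.0, 15.7 and 7.05 CPM in the uninduced libraries and 5.40, 4.48 and 4.26 CPM in the induced ones. This member of the p53-responsive chromosome 9 pair was lower in each induced library than in any uninduced one, and the uninduced libraries were the more spread. The means were 11.2 CPM ± 4.32 and 4.71 CPM ± 0.60 (SD, n = 3 each). It fell, with a log2 change of -1.24 (SE 0.29, edgeR adjusted p = 0.0349), or -1.18 (SE 0.20, edgeR adjusted p = 0.00145) with the trial as a block. Within trials 1, 2 and 3 the log2 differences were -1.03, -1.81 and -0.73. Of the other tested microRNAs, 9 had a lower log2 change.

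The call for miR-34c-5p was lost in most fits with 1 library left out, and those fits also hold fewer libraries. Without the block it held only when uninduced replicate 3 was left out (edgeR adjusted p = 0.00169). It was lost without uninduced replicate 1 (edgeR adjusted p = 0.141), uninduced replicate 2 (0.109), induced replicate 1 (0.0774), induced replicate 2 (0.151) or induced replicate 3 (0.0666). In the blocked fit it was lost when both libraries of trial 3 were left out (edgeR adjusted p = 0.0978) and held without trial 1 or trial 2. In all of these fits the change was negative.

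The other products of the chromosome 9 pair were too rare to pass the filter on low counts. miR-34b-5p, which carries the family seed, had 6, 3 and 4 reads uninduced and 1, 0 and 1 reads induced. Scaled to library totals, its summed reads were 7.56 times higher uninduced, with an exact 95% interval of 1.71 to 69.0 that covers counting error only. miR-34b-3p had 3, 6 and 1 reads uninduced and 3, 1 and 3 induced, an induced to uninduced ratio of 0.602 (exact 95% interval 0.194 to 1.75), so a difference was not detectable at this depth. miR-34c-3p had 4 reads in uninduced replicate 2, 1 read in induced replicate 2 and 0 elsewhere. The 5′ arm thus took 484 of 489 reads of the miR-34c hairpin (99.0%, exact 95% interval 97.6% to 99.7%) but 15 of 32 reads of the miR-34b hairpin (46.9%, exact 95% interval 29.1% to 65.3%). For miR-34b that share was 66.7%, 33.3% and 80.0% in the uninduced libraries and 25.0%, 0% and 25.0% in the induced ones, each from at most 9 reads.

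miR-449a-5p, from the Cdc20b intron on chromosome 13, had 3.42, 3.56 and 2.93 CPM uninduced and 8.97, 9.87 and 6.02 CPM induced. Every induced library was above every uninduced one, and trial 3 was lowest in both groups. The means were 3.30 CPM ± 0.33 and 8.29 CPM ± 2.01 (SD, n = 3 each), resting on 96 and 278 reads. It rose, with a log2 change of 1.32 (SE 0.24, edgeR adjusted p = 0.0128), or 1.30 (SE 0.18, edgeR adjusted p = 4.84e-04) with the trial as a block. Of the other tested microRNAs, 9 had a higher log2 change. The log2 differences within trials 1, 2 and 3 were 1.39, 1.47 and 1.04. The call was lost without uninduced replicate 1 (edgeR adjusted p = 0.0715) or induced replicate 2 (0.0705), and, with the block, without both libraries of trial 3 (0.0536).

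miR-449c-5p, from the same intron, had 3.63, 4.11 and 4.94 CPM uninduced and 9.88, 9.19 and 5.95 CPM induced. Here too the groups were separate, but trial 3 had the highest uninduced and the lowest induced library. The means of 4.23 CPM ± 0.66 and 8.34 CPM ± 2.10 (SD, n = 3 each) gave a log2 change of 0.97 (SE 0.25, edgeR adjusted p = 0.0505), just outside the threshold. With the trial as a block it rose by 0.94 (SE 0.22, edgeR adjusted p = 0.0116). The log2 differences within trials were 1.44, 1.16 and 0.27. Without the block it passed when replicate 3 of the uninduced (edgeR adjusted p = 0.0425) or of the induced group (0.0126) was left out, and the blocked call was lost without trial 1 (0.0721), trial 2 (0.136) or trial 3 (0.0693).

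The remaining products of the Cdc20b intron were at or near the detection limit. miR-449b had 2 reads, both in uninduced replicate 2. miR-449a-3p had 1 read in uninduced replicate 3 and 1 in induced replicate 1, and miR-449c-3p had 0 reads in every library. The 5′ arm held 374 of 376 reads of the miR-449a hairpin and 407 of 407 of the miR-449c hairpin. In both hairpins nearly all reads thus came from the arm with the family seed.

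**Figure D2:**
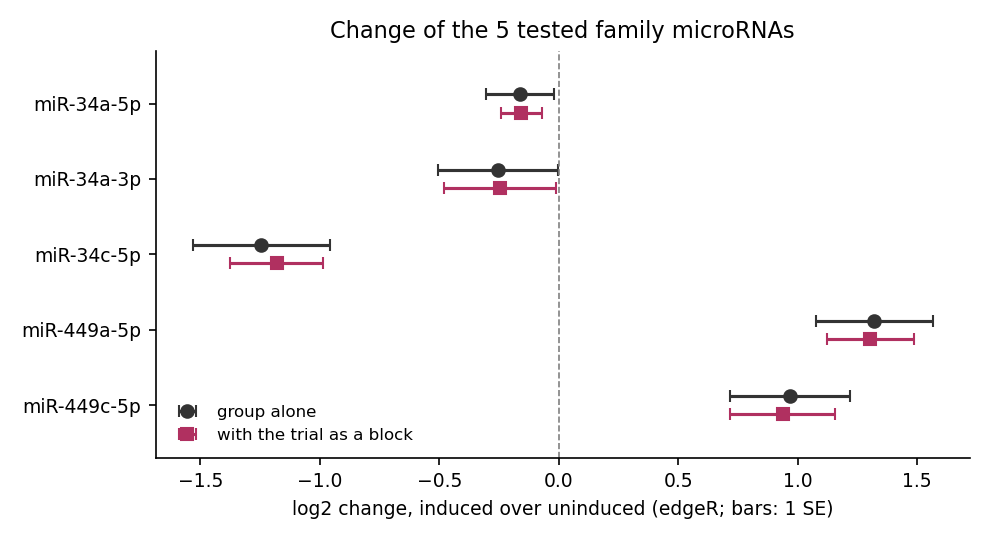
Log2 change of the 5 tested members, induced over uninduced, from edgeR with the group alone (circles) and with the trial as a block (squares), with bars of 1 SE. miR-449a-5p and miR-449c-5p lie to the right of 0, miR-34c-5p to the left at -1.24 and -1.18, and both arms of miR-34a within about 0.25 of 0.

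Ratios between members of one library do not depend on library scaling. The ratio of miR-449a-5p to miR-34c-5p was 0.311, 0.227 and 0.416 uninduced and 1.66, 2.20 and 1.41 induced, so miR-34c-5p was the more abundant of the pair before induction and miR-449a-5p after it. The log2 difference of this ratio was 2.49 (two-sided exact permutation p = 0.10, the smallest that 3 against 3 libraries allow; 0.20 after adjustment over the 4 ratios computed). The ratio of miR-449c-5p to miR-34c-5p shifted by 2.14 (exact permutation p = 0.10). Between the intron's own products, miR-449a-5p over miR-449c-5p was 0.941, 0.865 and 0.593 uninduced and 0.908, 1.07 and 1.01 induced (exact permutation p = 0.20, 0.267 adjusted), with overlapping groups. The ratio of miR-34a-5p to miR-34a-3p was 54.0, 41.8 and 42.1 uninduced and 40.6, 73.5 and 42.4 induced (exact permutation p = 0.80).

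The summed level of the shared seed overlapped between the groups. The 6 members miR-34a-5p, miR-34b-5p, miR-34c-5p, miR-449a-5p, miR-449b and miR-449c-5p were summed, with miR-34c-5p and miR-449b included by family name since their sequences were not in the RefSeq table. The pool was 405, 451 and 347 CPM uninduced and 385, 378 and 324 CPM induced. Its means of 401 CPM ± 52.1 and 363 CPM ± 33.2 (SD, n = 3 each) differed by less than the SD of the uninduced libraries. Within trials 1, 2 and 3 the induced library was the lower one, with log2 differences of -0.07, -0.25 and -0.10. As a sum over members it was not tested.

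miR-34a-5p alone supplied 95.2% ± 0.47 of the uninduced and 94.1% ± 0.72 of the induced pool (SD, n = 3 each). Without it, the pool was 18.7, 23.9 and 15.3 CPM uninduced and 24.3, 23.5 and 16.3 CPM induced, again with overlapping groups. Its makeup differed. The chromosome 9 pair gave 62.3%, 67.0% and 48.5% of this smaller pool uninduced and 22.5%, 19.0% and 26.6% induced, and the Cdc20b intron gave the remainder, 40.7% ± 9.60 and 77.3% ± 3.77 (SD, n = 3 each). In absolute terms the intron's products went from 7.60 CPM ± 0.48 to 16.6 CPM ± 4.03 and those of the chromosome 9 pair from 11.7 CPM ± 4.29 to 4.77 CPM ± 0.62 (SD, n = 3 each). These members are 21 to 23 bases long where a sequence was found and reads may include PCR copies, so levels of different members are compared as reads, and how efficiently each sequence enters a library was not measured.

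**Figure D3:**
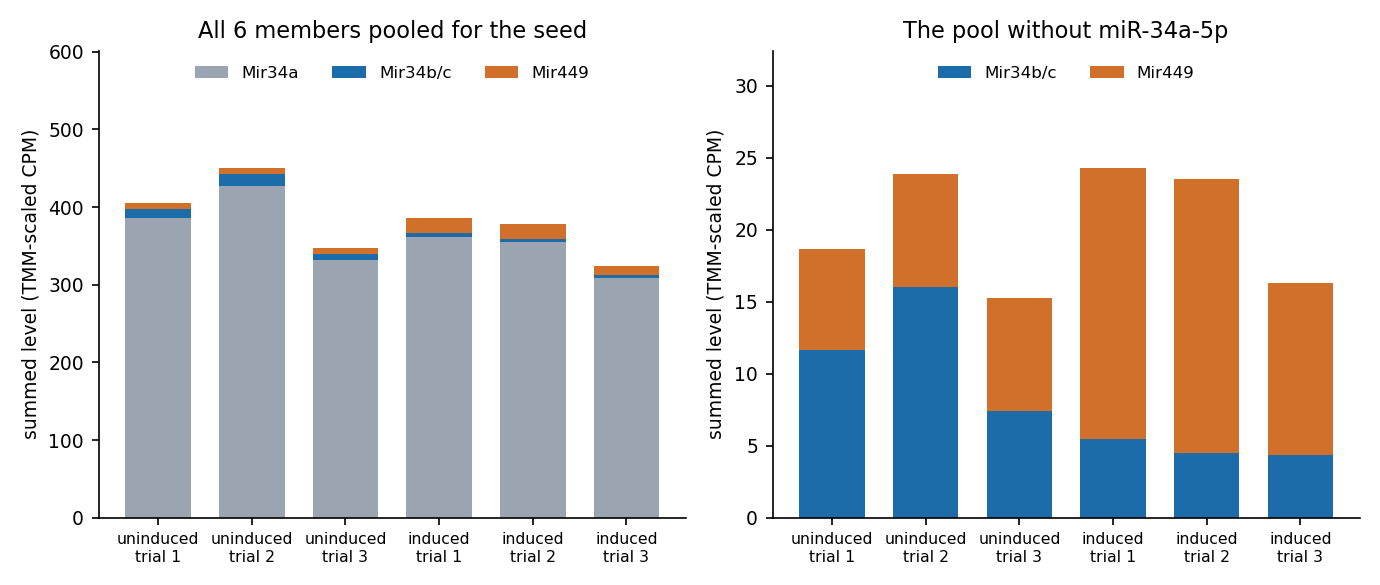
Summed level of the 6 members pooled for the seed in each library, stacked by locus in TMM-scaled CPM, with miR-34a-5p (left) and without it (right). On the left miR-34a-5p fills nearly the whole bar, and on the right the Mir449 part grows from 7.60 to 16.6 CPM on average while the Mir34b/c part shrinks from 11.7 to 4.77 CPM.

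Since miR-449a-5p from the Cdc20b intron rose and the series concerns PU.1, the RefSeq promoter of Cdc20b is shown, at chr13:113035129-113035428 on the plus strand of GRCm38.p6, from 250 bases before to 50 after the gene's start. The letters GAGGAA, the core of the purine-rich element that PU.1 is known to bind, were searched on both strands and are in capitals.
Cdc20b promoter: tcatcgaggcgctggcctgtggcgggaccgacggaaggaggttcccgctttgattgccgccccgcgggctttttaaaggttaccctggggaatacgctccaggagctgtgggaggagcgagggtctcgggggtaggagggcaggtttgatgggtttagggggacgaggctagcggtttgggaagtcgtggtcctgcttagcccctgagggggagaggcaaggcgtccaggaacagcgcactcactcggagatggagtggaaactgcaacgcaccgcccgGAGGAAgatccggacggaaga

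The letters occurred 1 time, on the plus strand, starting at base 30 of the gene. Of all 32851 promoters in the table, 28.3% hold them on either strand, and the match is a description only.

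**Figure D4:**
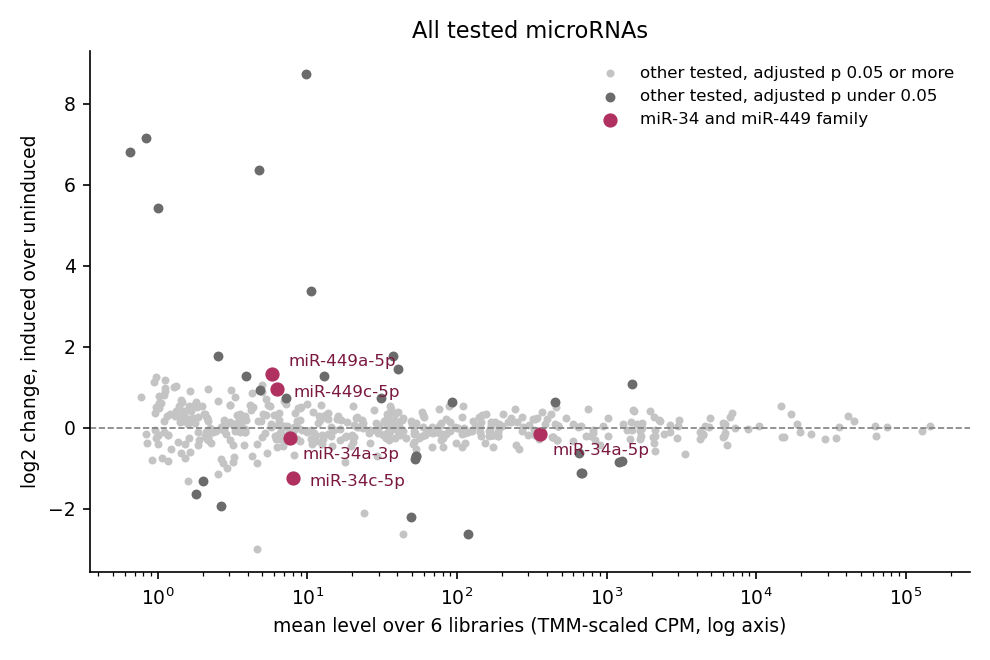
Log2 change against mean level (TMM-scaled CPM, log axis) for the 525 tested microRNAs, with the family in red and other microRNAs past the threshold in dark grey. miR-449a-5p at 1.32 and miR-34c-5p at -1.24 stand on opposite sides of 0 at similar levels, and miR-34a-5p at -0.16 lies among the light grey points.

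Other microRNAs linked to the regulators of this family were read from the same fit. Of 12 microRNAs known as p53-associated outside the family, 11 were tested, 2 rose and 0 fell, against 3.43% higher and 2.67% lower of all tested, and the median log2 change was 0.04, against 0.02 for all 525. The most abundant were miR-16-5p, a brake on the cell cycle, with a log2 change of 0.17 (SE 0.10), miR-192-5p with -0.24 (SE 0.11), miR-15a-5p with 0.10 (SE 0.12) and miR-107-3p with 0.04 (SE 0.12), with edgeR adjusted p from 0.242 to 0.870. The members that rose were miR-141-3p (log2 change 1.45, SE 0.17) and miR-200c-3p (1.28, SE 0.29), which belong to the epithelial miR-200 family. With the block the same 2 were higher and 3 others were lower, against 10.7% and 11% of all tested, namely miR-194-5p (-0.34), miR-145a-5p (-0.90) and miR-143-3p (-0.40), named after their values were seen.

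Of 5 microRNAs associated with C/EBPα, the granulocytic factor linked to miR-34a, all 5 were tested, among them both arms of the miR-223 hairpin. In edgeR 0 passed, against 6.1% of all tested, and 5 names are too few to tell these shares apart. The median log2 change was 0.25, against 0.02 for all tested. At an unadjusted edgeR p under 0.05 there was 1, and the share of all tested at that threshold was not computed. DESeq2 passed 0 and limma-voom 0, against 38 and 22 microRNAs in all. miR-182-5p had 0.27 (SE 0.14), miR-30c-5p 0.25 (SE 0.12), miR-223-5p -0.29 (SE 0.17) and miR-223-3p, the granulocyte microRNA, -0.23 (SE 0.39). With the block 2 were higher, against 10.7% of all tested, miR-182-5p (edgeR adjusted p = 0.0268) and miR-328-3p (0.0180), the latter named after its value was seen.

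Markers of epithelium, which in its multiciliated form is a known site of miR-449, were among the microRNAs that rose, as miR-449a-5p did. All 8 epithelial markers had reads in some library, and the 5 that were tested all belong to the miR-200 family. Of these 3 rose, against 3.43% of all tested that were higher. They were the named miR-200 relatives above and miR-200b-3p (log2 change 0.73, SE 0.19, edgeR adjusted p = 0.0499). miR-203-3p, miR-205-5p and miR-375-3p were below the filter on low counts, so no marker outside that family was tested. Of the 5 tested, 2 passed with DESeq2 and 1 with limma-voom, against 38 and 22 microRNAs in all. With the block 4 rose, against 10.7% of all tested that were higher. The summed level of all 8 markers was 32.9 to 40.1 CPM uninduced and 81.7 to 102 CPM induced. miR-205-5p, a defining epithelial marker, was at 0 in every uninduced library and at 0.19 CPM ± 0.21 (SD, n = 3) in the induced ones. That mean lies under the upper limit of 0.220 to 0.336 CPM set by 0 reads, so no difference is read from it. The part of these microRNAs in the miR-449 result was not tested. Markers of the male germ line, the other known site of miR-449 and miR-34b/c, summed to 1.11 to 1.28 CPM uninduced and 1.25 to 2.91 CPM induced over 6 microRNAs. In that list miR-883a-3p was at 0 throughout and none of the 6 passed the filter on low counts.

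The libraries carried blood markers that the label implies, at very unequal levels. The 9 haematopoietic markers summed to 71827 to 90841 CPM uninduced and 74346 to 91952 CPM induced, led by miR-142a-5p with a mean of 62458 CPM. Of 7 tested, 0 were past the threshold in edgeR, against 6.1% of all tested, and 7 names are too few to tell these shares apart. At an unadjusted edgeR p under 0.05 there was 1, again without a computed share of all tested. DESeq2 and limma-voom passed 0, against 38 and 22 microRNAs in all. With the block 1 passed, against 21.7% of all tested. Means over the 6 libraries were 34.1 CPM for miR-150-5p, 5.49 CPM for miR-146a-5p and 0.26 CPM for miR-451a, and the erythroid microRNA miR-144-3p was at 0. Neural markers summed to 0.22 to 0.46 CPM uninduced and 0.91 to 1.46 CPM induced. All of this was miR-9-5p, below the filter on low counts, with miR-124-3p, miR-219a-2-3p and miR-137-3p at 0 in every library. Stromal and muscle markers summed to 163 to 202 CPM uninduced and 110 to 169 CPM induced, mostly miR-143-3p.

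The microRNAs whose level over the 6 libraries was most like that of miR-34a-5p were sought among the 520 tested ones outside the family, by Pearson's r of log2 CPM. They were let-7c-2-3p (r = 0.980), let-7a-1-3p (0.980), miR-582-5p (0.978), miR-669p-5p (0.978) and miR-669a-5p (0.978). The let-7 entries had nearly equal counts in every library and miR-669p-5p and miR-669a-5p had equal ones, so the 5 names stand for 3 measurements. None of them passed the test, with log2 changes from -0.30 to -0.20. These points share their library scaling, and the r values are the highest of many, so they describe these libraries only.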

How the data were processed

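The authors deposited raw read counts per mature microRNA entry for 6 libraries, per the file headers, and CPM values that equal the counts over the total of all entries, within 0.005; the CPM values were used only for that check. Trim Galore 0.4.0, DESeq2 (listed as 2.1.8.0) and mm10 are named in the submitters' processing notes, and alignment to miRBase in the series' design text. The read counter, miRBase release, strand setting and treatment of reads with several matches were not given in the sources used here. The protocols mention no molecular identifiers.

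Of 2061 entries, 1 was kept for each of 1915 names, that with the most reads over the 6 libraries, which left out 17.5% of the reads. Each family name had 1 entry. Differences were tested over all names with edgeR 4.0.16 in R 4.3.3 (filterByExpr on the groups, TMM factors, robust glmQLFit, two-sided glmQLFTest, Benjamini-Hochberg threshold 0.05), with the group alone. SEs are the log2 change over the square root of F. DESeq2 1.42.0, limma-voom (limma 3.58.1), other scaling, no filter, other choices of entry and left-out libraries were alternatives. The fit was tested on simulated data.

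The trials were used as a block in a further fit. After subtraction of group means, the log2 CPM (prior count 2) of same-trial libraries had correlations over microRNAs of 0.33, 0.45 and 0.53. Every pair was over 0.1, and the labelled trials were taken as pairs. Families, lists and tests were chosen with earlier results of these data known. All family members are named; of the lists, the 4 most abundant tested members and those past the threshold. Within a group, libraries differed beyond sampling noise (chi-square over degrees of freedom at least 115).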

Additional observations from a re-analysis of the deposited data

How the results depend on the processing

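Without the block, 32 tested microRNAs, 2 family members and 2 microRNAs of the p53 and C/EBPα lists passed. The replicate block raised these to 114, 3 and 7. With limma-voom they were 22, 1 and 1. DESeq2, DESeq2 or upper-quartile scaling in edgeR, no filter, the sum and the lowest entry gave 25 to 48 in all. Leaving out 1 library without the block gave 12 to 41, 0 to 3 and 1 to 2, and leaving out both libraries of a trial with the replicate block gave 66, 60 and 12 without trials 1, 2 and 3, 0 to 2 and 1 to 7. Fewer libraries were fitted there. The cause of the differences among the other settings was not tested. miR-34c-5p kept a negative and miR-449a-5p and miR-449c-5p a positive change in each of the 17 alternatives, with the call of miR-34c-5p lost in 7, that of miR-449a-5p in 3 and one gained for miR-449c-5p in 5. With limma-voom miR-34c-5p had an adjusted p of 0.0623. miR-34a-5p passed in none and stayed negative, and miR-34a-3p turned to 0.089 in the replicate block without trial 2. The pooled seed had a log2 ratio of -0.15, between -0.24 and -0.05 with 1 library left out, and of 0.15 without miR-34a-5p. The scalings tried moved the median log2 change of all tested microRNAs by less than 0.1. Family members of at most 17 reads in all were below the filter on low counts.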
